A study of Homo sapiens with 2 samples.

Results

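The short arm of chromosome 19 carried 343 of the 7709 genomic intervals at which chromatin from t-HESC cells was enriched with an antibody against EGR1. These intervals were found by position alone, as all intervals on chromosome 19 that end below position 24400000 of build GRCh37. t-HESC is a single human cell line, immortalised from the stroma (connective tissue) of the endometrium, which lines the uterus. The series held 1 chromatin immunoprecipitation sequencing (ChIP-seq) library for EGR1 and 1 input library of sonicated DNA from the same untreated cells grown in serum and puromycin. Only the ChIP library had files, so every value below describes 1 library with no replicate, and its read depth is unknown. Ranges in brackets are exact 95% intervals, Poisson for counts and Clopper-Pearson for shares, and reflect counting error alone. Many intervals were neighbours and so not independent, which makes these ranges too narrow.

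EGR1 is a zinc-finger transcription factor and the product of an immediate early gene, one that cells switch on within minutes of a growth or stress signal without making new protein first. It recognises a short GC-rich sequence through its zinc fingers, and the NAB proteins act as its co-repressors. Chromosome 19 is the human chromosome with the most genes for its length and the highest share of G and C. Its short arm carries early response genes (JUNB, IER2 and GADD45B) and the JUN family gene JUND. The arm also carries genes of GC-box factors related to EGR1 (KLF1, KLF2 and KLF16) and, towards the centromere, a long block of zinc-finger repressor genes. Which gene lies at which interval was not analysed here, because the gene tables at hand are on another build, GRCh38.p14.

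For reference, the letters of the EGR1 motif were looked for in RefSeq promoter windows of protein-coding genes, from 250 bases before to 50 bases after the gene start. The motif was GCGNGGGCG on either strand, which includes the classical EGR1 sequence with T at the open position. On the short arm, 96 of 651 windows held a match, or 14.7% (12.1 to 17.7%), against 12.2% of all 22156 windows and 9.25% (7.44 to 11.3%) of the 897 windows on the long arm. The short-arm range takes in the share of all windows. The windows of the short-arm zinc-finger genes (symbols of ZNF and a number) held a match in 4 of 78 cases, or 5.13% (1.41 to 12.6%). The other short-arm windows held one in 92 of 573 cases, or 16.1% (13.1 to 19.3%). The median GC content was 58.7% in the former and 66% in the latter, and the part of base composition in the match shares was not tested. The 651 windows covered 507 of the 648 protein-coding genes of the arm. Windows of the same gene are not independent, which makes the ranges given here too narrow.

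Of 8 short-arm genes on a list of early response, JUN family and GC-box factor genes (JUNB, JUND, IER2, GADD45B, KLF1, KLF2, KLF16 and MIDN), 4 had a window with a match. Over the whole arm the share was counted per window (96 of 651) and not per gene, so these 4 cannot be read as an excess. The GC content of the 8 genes' windows ran from 57% (KLF1) to 86% (KLF16), against a short-arm median of 65%. The stretches around the first match are shown so that the letters searched can be seen in their setting. They are RefSeq sequence of build GRCh38.p14, written 5′ to 3′ along the gene's strand, with the match in capitals. The genes KLF2, GADD45B and MIDN lie on the plus strand and KLF16 on the minus strand. A match to the gene's own strand reads as GCG first, and one to the opposite strand as CGC first. No EGR1 interval was assigned to these windows, so the stretches show the motif and not a bound site.
GADD45B: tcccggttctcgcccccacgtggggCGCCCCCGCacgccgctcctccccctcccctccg
KLF2: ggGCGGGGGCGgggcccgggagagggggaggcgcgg
KLF16: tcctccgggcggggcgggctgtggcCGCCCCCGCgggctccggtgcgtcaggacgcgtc
MIDN: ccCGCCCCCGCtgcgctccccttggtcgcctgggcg
The match began 159 bases before the start of GADD45B, which encodes a stress-induced protein, and 114 bases before that of KLF16. In KLF2 and MIDN it began 248 bases before the start, at the edge of the window. The windows of KLF2 and KLF16 each held 2 matches.

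EGR1 intervals were denser on the short arm than on the long arm or on any other chromosome taken whole. The arm held 4.45% (4.0 to 4.93%) of all intervals, at 14.9 intervals per Mb (13.3 to 16.5) over the 23.1 Mb from its first to its last interval. The long arm had 331 intervals, 11.5 per Mb (10.3 to 12.8), so the short arm was 1.29 times as dense (95% interval of the ratio 1.11 to 1.5). All chromosomes other than 19 together had 2.47 per Mb (2.41 to 2.53), and the short arm was 6.02 times as dense (5.39 to 6.71). Chromosome 17, the densest of the other chromosomes, had 6.98 per Mb, and the ratio to it was 2.13 (1.86 to 2.44). The length of the long arm starts at its first interval and so leaves out the centromere. Each arm's length includes a long interval-free stretch, of 3282400 bp on the short arm and of 2829359 bp on the long arm. The other chromosomes were each measured whole, from first to last interval, and no other arm or stretch of like length was measured. The short arm and chromosome 17 were named with their densities known.

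Counted by genes, the difference was smaller. RefSeq lists 648 protein-coding genes on the short arm, taking the arm to end at the longest gene-free stretch of the chromosome, between ZNF254 and UQCRFS1. There were 52.9 EGR1 intervals per 100 of these genes (47.5 to 58.8). On the long arm there were 41.2 per 100 of 803 genes (36.9 to 45.9), and on all other chromosomes 38.0 per 100 (37.1 to 38.9). The ratio of the short arm to the other chromosomes was thus 1.39 by genes (1.25 to 1.55) against 6.02 by length. The ratio to the long arm was 1.28 (1.10 to 1.5), about what it was by length. None of the 22 other chromosomes had more intervals per 100 genes than the short arm. Chromosome 17 came closest with 48.1 (44.2 to 52.2), and the ratio to it was 1.10 (0.960 to 1.26). Chromosome 13, which is poor in genes, had 47.9 (40.8 to 55.9), with a ratio of 1.10 (0.913 to 1.34). Both of these ratios have intervals that include equality, so the arm could not be told apart from those chromosomes by this measure. Chromosome X was lowest with 15.8 per 100 genes (13.2 to 18.7). The gene counts are of build GRCh38.p14, whereas the intervals are of GRCh37, and only the number and order of genes were used.

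**Figure D1:**
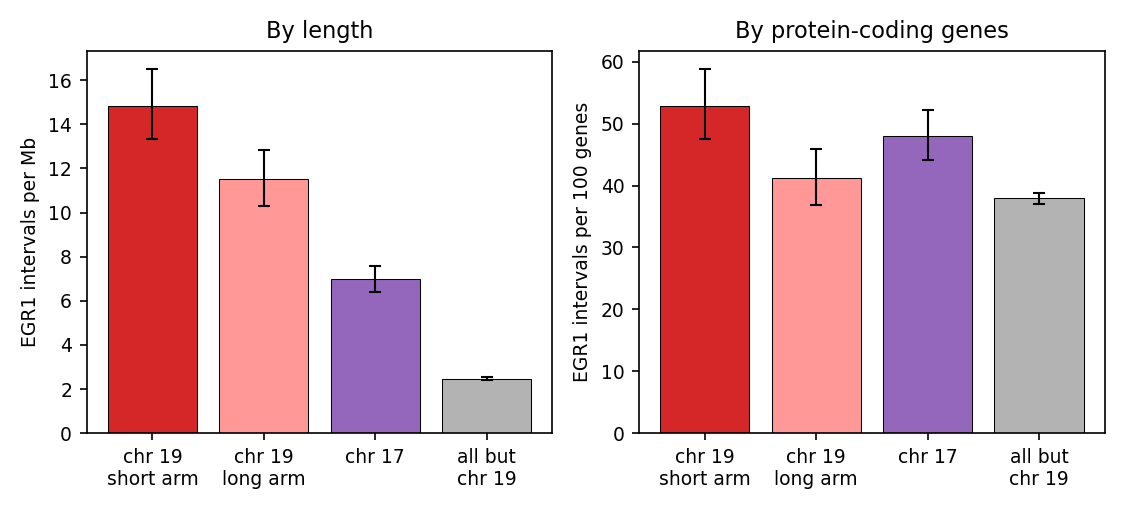
EGR1 intervals per Mb (left) and per 100 RefSeq protein-coding genes (right) on the short and the long arm of chromosome 19, on chromosome 17 and on all chromosomes other than 19; bars are values from 1 library and whiskers exact Poisson 95% intervals. By length the short arm stands at 14.9 against 2.47 for the other chromosomes, and by genes at 52.9 against 38.0.

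The excess of EGR1 intervals was spread over most of the arm and ended sharply before the centromere. The arm was divided into 25 bins of 1 Mb by summit position, the last of them cut by the end of the stretch. In the 20 bins up to position 20000000, counts ran from 6 to 46 with a median of 14. The Poisson interval lay wholly above the 2.47 per Mb of the other chromosomes in 19 of these bins. The exception was the bin from 8000001 to 9000000, with 6 intervals (2.20 to 13.1). How many 1 Mb bins of the long arm or of the other chromosomes pass the same limit was not counted. Beyond position 20000000 there were 2 intervals, one each in the bins starting at 20000001 and 23000001, and the other 3 bins had none, where a count of 0 allows up to 3.69 per whole bin. The density was 23.0 per Mb (19 to 27.6) in the 5 Mb nearest the end of the arm. It was 9.20 (6.74 to 12.3) from 5 to 10 Mb, 17.8 (14.3 to 21.9) from 10 to 15 Mb and 18.2 (14.7 to 22.3) from 15 to 20 Mb. The stretch from 5 to 10 Mb was thus the sparsest of the 4, and its interval did not overlap those of the others.

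**Figure D2:**
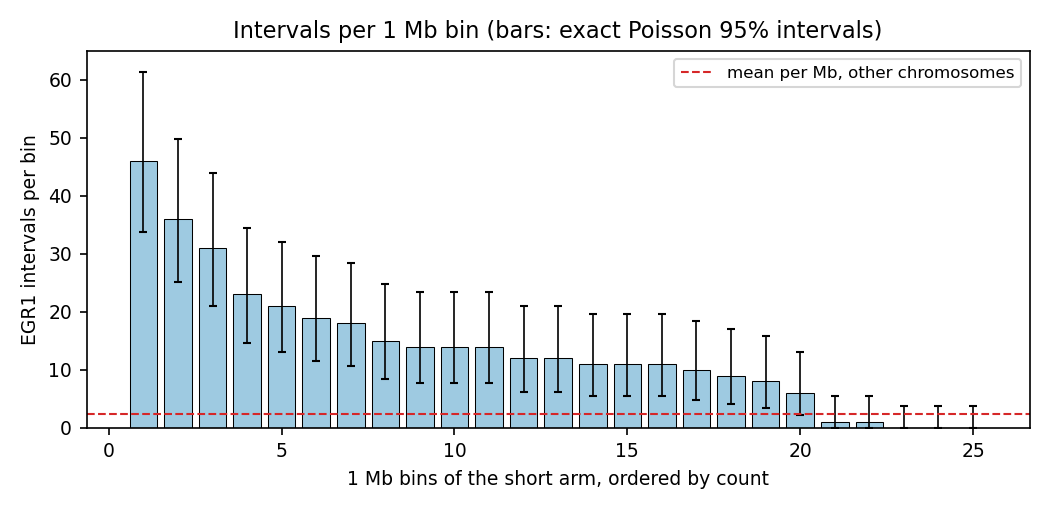
EGR1 intervals in each 1 Mb bin of the short arm, ordered by count; bars are counts in 1 library, whiskers exact Poisson 95% intervals, and the dashed line the 2.47 intervals per Mb of all chromosomes other than 19. Counts fall from 46 to 6 over 20 bins and then to 1 or 0 in the last 5.

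The 3 densest bins held 113 of the 343 intervals, or 32.9% (28.0 to 38.2%). The densest, from 1000001 to 2000000, had 46 intervals (33.7 to 61.4) in 39 separate sites, where a site is a run of intervals whose edges lie at most 1000 bp apart. Its scores ran from 13 to 89 with a median of 29. The score is the whole number that the authors deposited for each summit. No source used here states its unit, and it serves only to rank intervals within this list. The second, from 18000001 to 19000000, had 36 intervals (25.2 to 49.8) in 26 sites, with scores from 14 to 77 and a median of 27.5. The third, from 10000001 to 11000000, had 31 (21.1 to 44.0), also in 26 sites, with scores from 15 to 99 and a median of 25. The median score of the whole arm was 26.

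At a finer scale, intervals gathered in short stretches separated by empty ones. Of the 200 windows of 100 kb below position 20000000, 70 (35%) held no interval, and 18 held 5 or more. Those 18 windows took in 120 intervals, 35.2% of the intervals below that position. Such windows were not counted on the long arm or on other chromosomes, so this pattern is not shown to be particular to the arm. The fullest window, from 1200001 to 1300000, held 12 intervals, all between positions 1236220 and 1276807. It opened with an interval at 1236220 to 1236678 (score 29) and one at 1239517 to 1240277 (score 44). A site of 3 intervals followed at 1251328 to 1253766, with scores of 31, 19 and 21. Next came a lone interval at 1260556 to 1260904 (score 33) and a pair at 1262002 to 1262950 (scores 31 and 33). A further pair at 1265985 to 1267519 had scores of 43 and 24, and a lone interval at 1269035 to 1269357 had 32. The last, at 1275701 to 1276807, was 1107 bp wide and had a score of 89, more than any of the other 11 in the window. The windows starting at 1100001, 10400001 and 13200001 held 9 intervals each, and that starting at 18500001 held 8.

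The highest EGR1 score of the arm was 145, at positions 7985551 to 7986493. That interval was 943 bp wide, ranked 36 in the whole list by score, and was the last before an empty stretch of 442036 bp. The second, at 3434540 to 3435621, had a score of 127 and a width of 1082 bp. The third, at 2168666 to 2169350, had a score of 117, and the fourth, at 2785104 to 2785506, had 102 although it was only 403 bp wide. These 4 were the arm's intervals with a score over 100, or 1.17% of its 343 (0.319 to 2.96%), against 164 of 7709 (2.13%) in the whole list.

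The other 6 of the 10 highest-scored intervals had scores of 85 to 100. The interval at 2383903 to 2385092 had a score of 100, and that at 10980756 to 10981684 had 99. Scores of 95 and 89 belonged to the intervals at 14639626 to 14640571 and at 1275701 to 1276807. The interval at 2474875 to 2476750, with a score of 87, was also the widest of the arm at 1876 bp. The last of the 10, at 3626751 to 3627170, had a score of 85, and just outside the 10 were 2 intervals with 84. Of these 10 intervals, 7 lay in the first 5 Mb of the arm, which held 115 of all 343 intervals. All 10 were wider than the arm's median width of 373 bp. In their site 9 stood alone, against 248 of all 343 intervals, and the top one was the exception, with a neighbour 236 bp away. Of those 9, the intervals at 2474875 and 10980756 had neighbours 1011 and 1092 bp away, just past the joining distance of 1000 bp.

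**Figure D3:**
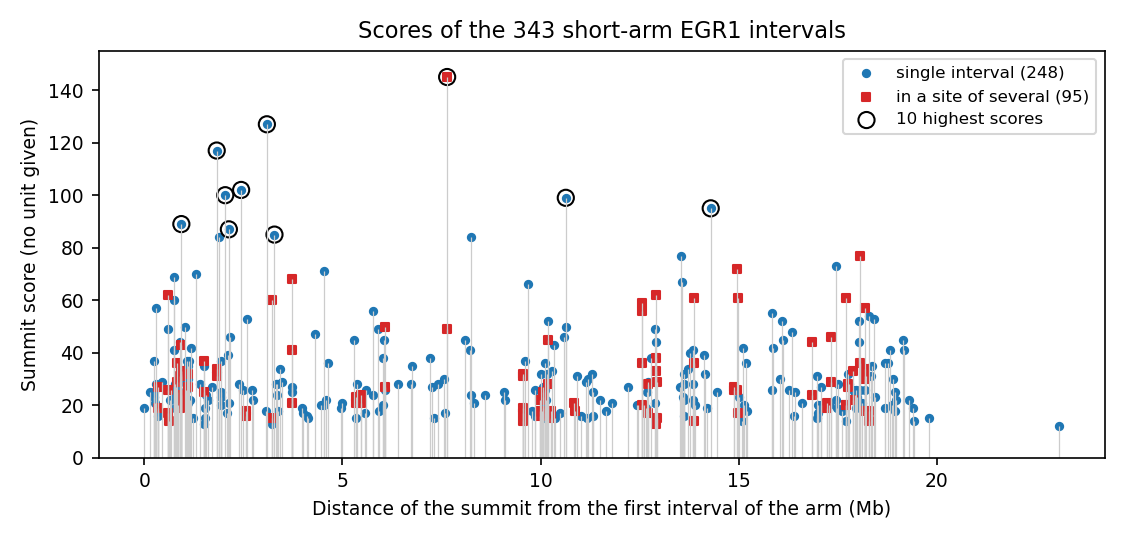
Summit score (no unit given) of each of the 343 short-arm EGR1 intervals against the distance of its summit from the first interval of the arm, in Mb; squares are intervals in sites of several, and rings mark the 10 highest scores. Of the 10 ringed points, 7 lie in the first 5 Mb, where 115 of the 343 intervals lie, and the 2 intervals past position 20000000 have scores of 15 and 12.

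In score, the short arm resembled the rest of the list. Its scores ran from 12 to 145 with a median of 26 (quartiles 20 and 37), and all other chromosomes had the same median and quartiles. On the long arm the median was 28 (quartiles 21 and 38). A score of 57 or more, the 90th percentile of the list, was reached by 32 short-arm intervals, or 9.33% (6.47 to 12.9%), against 10.2% of all intervals, and so near the background. On the long arm it was 38 of 331, or 11.5% (8.25 to 15.4%). Among these highest-scored intervals alone, the density ratio of the short to the long arm was 1.05 (0.634 to 1.72), and that to the other chromosomes was 5.50 (3.74 to 7.84). With scores of 26 or more, the median of the list, the ratio to the long arm was 1.21 (0.982 to 1.48) from 188 and 194 intervals, and that to the other chromosomes was 6.54 (5.62 to 7.58). The excess over the other chromosomes was therefore present under both score limits, while the ratio to the long arm had an interval that includes equality under both.

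Within the arm, many of the highest-scored intervals lay near its end. The first 5 Mb held 16 of the 32, or 13.9% (8.17 to 21.6%) of the 115 intervals there. The stretch from 5 to 10 Mb held 2 of 46, or 4.35% (0.531 to 14.8%), that from 10 to 15 Mb held 8 of 89, or 8.99% (3.96 to 16.9%), and that from 15 to 20 Mb held 6 of 91, or 6.59% (2.46 to 13.8%). These shares overlap within their intervals. The median scores of the 4 stretches, in the same order, were 27, 26.5, 26 and 26, so the typical interval did not follow the count of high ones.

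Short-arm EGR1 intervals were somewhat wider than those elsewhere. The arm's intervals had a width of 373 bp at the median and of 268.5 and 556 bp at the quartiles, against 341 bp (255 and 488 bp) on the other chromosomes and 344 bp (267 and 496 bp) on the long arm. The narrowest width in the list, 207 bp, was found in 12 short-arm intervals, or 3.50% (1.82 to 6.03%), and in 4.88% (4.38 to 5.41%) of those on the other chromosomes. Together the intervals covered 151691 bp, or 0.657% of the arm's length, against 0.101% on the other chromosomes. Width and score went together on the arm, with a Spearman rho of 0.58 across its 343 intervals, given as a description since both come from the same reads. The rho was 0.64 on the other chromosomes. In the 86 narrowest intervals of the arm (207 to 268 bp) the median score was 20 and 1 reached a score of 57. In the 85 widest (557 to 1876 bp) the median was 41 and 21 did.

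**Figure D4:**
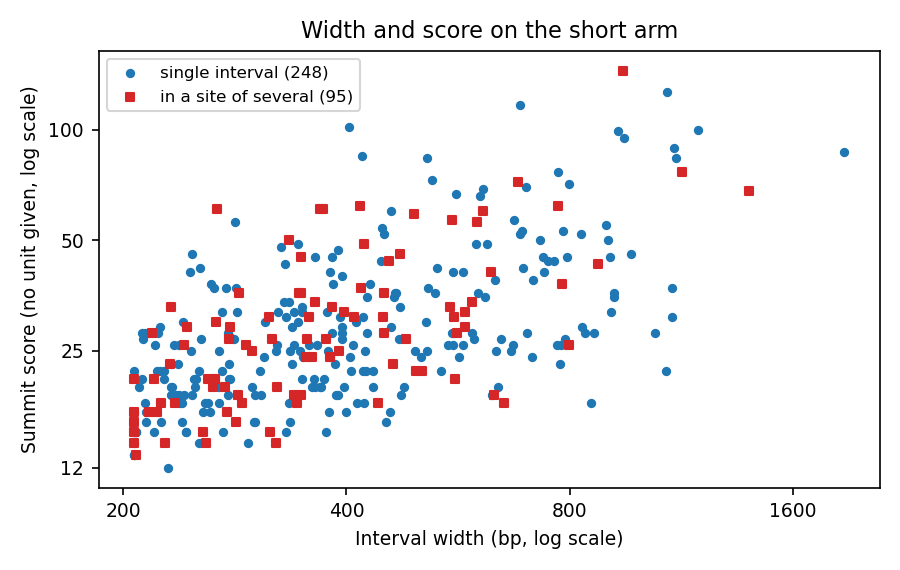
Width in bp against summit score (no unit given) of the 343 short-arm EGR1 intervals, both on log scales; circles are single intervals and squares intervals in sites of several. Wider intervals have higher scores, with a rho of 0.58. The widest single interval has 1876 bp and the widest in a site of several 1394 bp, and the highest scores are 127 and 145.

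Joined where their edges lay at most 1000 bp apart, the 343 intervals formed 290 sites. Of these, 248 were single intervals, 34 had 2, 6 had 3, 1 had 4 and 1 had 5. The sites of several took in 95 intervals, 27.7% (23.0 to 32.8%), against 27.3% of all intervals, so close grouping was as frequent as in the list as a whole. Their median span was 1278 bp, with quartiles of 933 and 1532 bp. The median score of their members was 27 (quartiles 19.5 and 36), against 26 (quartiles 20 and 37) for single intervals. A score of 57 or more was reached by 12 of the 95, or 12.6% (6.70 to 21.0%), and by 20 of the 248 single intervals, or 8.06% (5.0 to 12.2%). Whether the peak caller cut 1 enriched stretch into several intervals was not tested.

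The longest site, at 18525987 to 18529930, held 5 intervals over 3944 bp. In order along the chromosome their scores were 34, 30, 18, 57 and 31, and the gaps between them were 856, 393, 210 and 225 bp. The highest member, the fourth, was 555 bp wide. The first interval stood farthest from its neighbour, and the other 4 lay together.

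The site of 4 intervals lay at 13262680 to 13265928. Its scores were 33, 38, 62 and 13, with gaps of 283, 443 and 211 bp. The third member, at 13264739 to 13265509, was the highest at 771 bp wide, and the fourth, only 208 bp wide, had one of the lowest scores of the arm. A strong and a weak interval thus lay side by side at this site.

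The sites of 3 intervals differed in shape. At 4058076 to 4060473 the scores fell from 68 to 41 and 21 along the chromosome and the widths from 1394 to 627 and 207 bp, with gaps of 89 and 81 bp. At 14227706 to 14228772 they rose from 14 to 36 and 61, with gaps of 76 and 169 bp, and 76 bp was the narrowest gap of the arm. The site at 18057193 to 18058621 had scores of 20, 20 and 61. The other 3, at 1251328, 9902282 and 10340683, had no score above 31. Among these sites of 3, each one with a high member thus had 1 interval that stood above the others, at its first or last place. In the sites of 5 and 4 intervals the highest member was the fourth and the third.

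**Figure D5:**
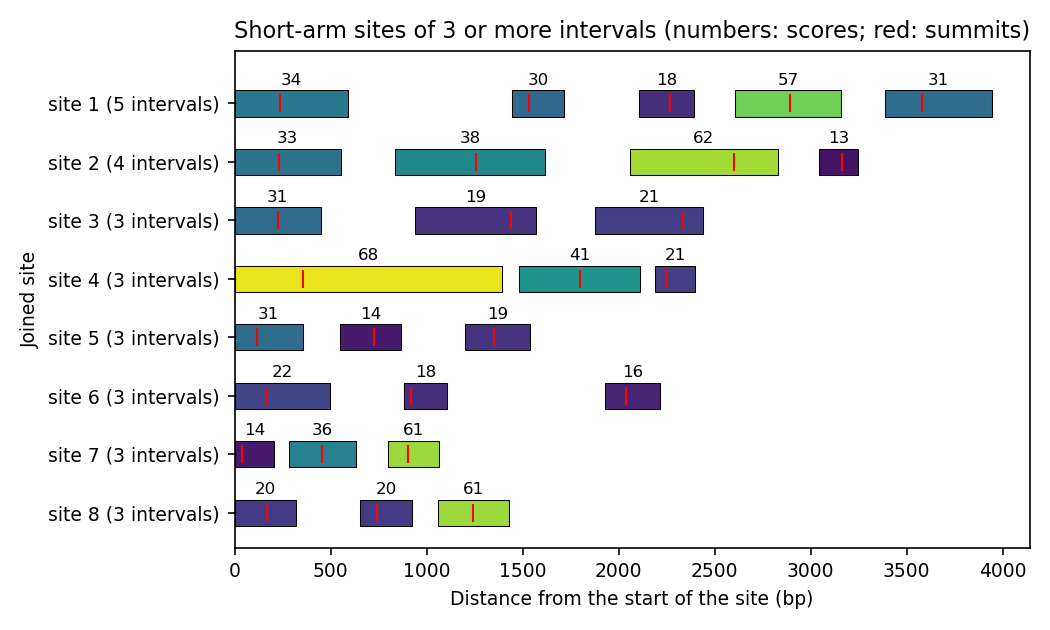
The 8 short-arm sites with 3 or more EGR1 intervals, drawn to scale from the start of each site in bp; boxes are intervals with their scores above, coloured from dark (low) to yellow (high), and red ticks are summits. In the top row 5 intervals span 3944 bp with a highest score of 57, and in the second the scores are 33, 38, 62 and 13.

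Between neighbouring intervals of the arm the median gap was 21488 bp (quartiles 3288 and 68542 bp). On the long arm it was 27118 bp, and on the other chromosomes 96339 bp. The longest gap, 3282400 bp from position 20150359 to 23432760, lay towards the centromere, and the next longest were 633350 bp from 15544242 and 599794 bp from 13275457. Only 1 gap on the arm was thus longer than 1 Mb.

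The 2 intervals on either side of the longest gap were narrow and low-scored. That at 20150152 to 20150359 was 208 bp wide with a score of 15. That at 23432760 to 23432989 was 230 bp wide and had a score of 12, the lowest of the arm. It was also the last one inside the limit that defines the arm, and the first beyond it lay at 30336366 to 30336605 with a score of 28, so the exact limit between them does not affect which intervals were counted. In RefSeq gene order, 37 of the last 40 protein-coding genes before the centromere are zinc-finger genes. Their positions were not set against this interval-poor stretch, and how much of the stretch reads can be mapped to was not analysed.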

How the data were processed

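Per the labels' protocols, sonicated nuclear chromatin was precipitated with an EGR1 antibody, and libraries were size-selected, amplified by PCR and sequenced (NextSeq). The build (GRCh37.p2) and the tools MACS2 2.1.0, MACS and BWA come from the submitters' processing notes; no source used here states options, thresholds or how duplicates were treated, and duplicates bear on scores. Positions (unit: other) and a score per summit were used as deposited by the authors. Starts are printed 1-based.

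Counts, densities over the length from first to last interval, and ratios (exact conditional binomial 95% intervals) were computed with scipy 1.17.1, pandas 2.3.3 and numpy 2.4.6 in Python 3.11.15 (figures: matplotlib 3.10.9). The interval and joining code was tested on simulated data. Intervals named were the 10 highest-scored, the widest, the 3 densest bins and the sites of 4 or more; the sites of 3, the fullest 100 kb window, the 5 Mb stretches and the gene and promoter counts were added after values were seen. Members and lists were chosen with earlier results of these data known. Alternatives varied score limit, joining, bin size and arm limit. Gene starts, motifs at summits and gene lists at intervals, planned for GRCh37, were not analysed here.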

Additional observations from a re-analysis of the deposited data

How the results depend on the processing

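Of 23 alternative values, 8 stayed within the 95% interval of the reported one or, for counts, within 1.5 times of it. With scores of at least 26 (the median) the arm held 188 intervals, 8.14 per Mb, with a median score of 36 and width of 458 bp; with scores of at least 57 it held 32, 1.39 per Mb, with medians of 71.5 and 677.5 bp. These shifts follow from the limits. With neighbours joined the density was 12.6 per Mb. Below 20 Mb alone it was 17.6 per Mb, 1.52 times the long arm and 7.11 times the other chromosomes, because the interval-poor stretch is left out. Only the short arm was cut for these ratios. The long arm kept its own longest gap of 2829359 bp, so the value of 1.52 does not compare the arms on like terms. The ratio to the long arm was 1.05 at scores of at least 57; the cause was not tested. The densest bin held 66 per Mb with 500 kb bins and 32.5 per Mb with 2 Mb bins. The ratio to the other chromosomes at either score limit or with neighbours joined, was among those 8 (5.50 to 6.54), as was the number of sites of several, which was 34 when joined at 500 bp and 52 at 2000 bp. Other settings for gene lists, gene starts and motifs were not run. No paired analysis was possible because each group has 1 sample. Unknown depth limits every value to this library.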

Other observations

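Summits of the short-arm EGR1 intervals fell on a grid. Of the 343 summit positions, 268 (78.1%, 73.4 to 82.4%) were whole multiples of 32 bp, and the share was 77.3% (76.3 to 78.3%) on the other chromosomes. Distances between summits on the arm are therefore coarse at that scale. The summit lay at a median of 44.4% of the interval's width from its lower coordinate on the arm and at 45.3% on the other chromosomes.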
